A study of Mus musculus with 24 samples.

Results

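Embryoid bodies (EB) treated to remove the protein BRD2 were compared between day 3 and day 2 of differentiation. The comparison used 6 of the 24 RNA-seq libraries of the series, chosen by their labels, and the 21484 of 35742 genes whose mean over those 6 libraries was at least 1. All libraries came from V6.5, a line of mouse embryonic stem (mES) cells, with a degron on BRD2. A degron is a stretch added to a protein that leads to its destruction, here once the plant hormone auxin is present. The EBd3 IAA and EBd2 IAA groups (3 libraries each) had Dox (doxycycline, 1 µg/ml, for 18 h) followed by the auxin IAA (indole-3-acetic acid, 500 µM, for 24 h). The EBd3 Dox and EBd2 Dox groups (3 libraries each) had the same Dox without IAA, so Dox and the degron were common to all cells. EB were grown from the stem cells in medium that lacked leukaemia inhibitory factor (LIF). The hour of EB culture at which IAA was given, what Dox switches on, whether the line is a single clone, and whether the 3 libraries of a group came from separate cultures are not stated in the labels. The p-values thus measure the spread between these libraries, which may be technical.

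BRD2 belongs to the BET proteins, which bind acetylated histones through bromodomains and help RNA polymerase II to start transcription and to leave promoters. When LIF is withdrawn and the cells aggregate, mES cells are known to shut off the naive pluripotency factors, pass through a formative epiblast state with high de novo DNA methyltransferase expression, and then enter the germ layers under Nodal, Wnt, BMP and FGF signals. EB are also known to become short of oxygen in their interior as they grow.

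Recovered reads per library were 7819522 to 9416260 in EBd3 IAA and 11648384 to 15732767 in EBd2 IAA. Mitochondrial genes held 1.25% to 1.26% of the reads in EBd3 IAA and 0.959% to 1.03% in EBd2 IAA. Day, depth and mitochondrial share moved together and cannot be told apart here. Thinning all libraries to the same depth also put equal totals in place of the size factors, so it does not vary depth alone. It left the counts of calls within 1.5 times, with 4661 rises and 3702 falls in IAA cells, against 4389 and 4996 without thinning. All pairs of libraries within these groups differed by more than sampling noise, and among the 12 EB libraries used EBd2 Dox 3 stood apart from EBd2 Dox 1 and 2. Chi-square per degree of freedom was 4.49 and 3.77 for these pairs, and next highest, at 3.34, for EBd3 IAA 2 against EBd3 IAA 3. Levels below are counts divided by the authors' size factors, which allow a gene to be compared between libraries but not with another gene. Errors on levels are SD over 3 libraries (n = 3). Changes are log2 fold changes ± SE of EBd3 IAA over EBd2 IAA from limma on log2(level + 1), a scale that understates the change of low genes, and "rose" and "fell" mean a Benjamini-Hochberg adjusted p below 0.05. In bulk RNA, fewer cells of a type and less RNA per cell cannot be told apart. Reads of overlapping and antisense genes cannot be told apart either, since the strand setting of the counting is not stated. Positions of genes are those of GENCODE M21 on mm10.

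The level of Brd2 RNA says nothing of the protein, on which the degron acts. Brd2 (ENSMUSG00000024335, chromosome 17, 34112023 to 34122634) had 6033, 5643 and 5619 in EBd3 IAA, against 12278, 11149 and 11463 in EBd2 IAA. The groups did not overlap, and the gene fell by day 3 (-1.01 ± 0.04, adjusted p = 4.87e-14). The germ-cell BET gene Brdt fell as well, with 34.0 ± 1.93 in EBd3 IAA, against 63.0 ± 12.05 in EBd2 IAA (-0.86 ± 0.18). Brd3 had 1898, 1916 and 1818 in EBd3 IAA and 2053, 1825 and 1955 in EBd2 IAA. These ranges overlapped, and its change did not pass the test (-0.05 ± 0.05, adjusted p = 0.455). Of the 24 BET and pause-release genes listed, all measured, 3 rose and 16 fell, beside 20.4% and 23.3% of all 21484 tested genes (43.7% called in all), with a median of -0.25 against -0.04 over all tested genes. Hexim1 and Mepce, parts of the 7SK complex that holds P-TEFb inactive, fell (-1.39 and -0.85), while Larp7, the protein of that complex that protects the 7SK RNA, rose (0.59). Aff1, a scaffold of the super elongation complex, rose as well (1.16), with 855, 852 and 699 in EBd3 IAA and 360.3, 312 and 401 in EBd2 IAA.

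Across all genes, 4389 rose and 4996 fell between the days in IAA cells, 1089 (5.07%) and 1323 (6.16%) of them by at least 2-fold. The libraries of the 2 groups did not overlap for 11313 genes (52.7%). The largest rise among well-measured genes was that of Rgl3, an exchange factor for Ral GTPases (ENSMUSG00000040146, chromosome 9, 21968711 to 21989446), with 166, 198 and 110.4 in EBd3 IAA and 12.4, 13.5 and 20.5 in EBd2 IAA (3.26 ± 0.22, adjusted p = 8.14e-11). Nfatc4, a calcineurin-regulated transcription factor, had 695, 716 and 575 in EBd3 IAA and 113, 75.8 and 156 in EBd2 IAA (2.57 ± 0.16). Krt18, a keratin of simple epithelia, had 1156, 1242 and 838 in EBd3 IAA and 191, 204 and 203 in EBd2 IAA (2.41 ± 0.10). Separate libraries of the 2 groups were a condition for a place among the 10 largest rises or falls, so their separation is no result. The other members of the 10 largest rises were the membrane-binding annexin Anxa2 (2.34), the pluripotency factor Nanog (2.33), the cytokine signal transducer Stat5b (2.26), the glycolipid enzyme A4galt (2.19), the hormone precursor Trh (2.18), the hypoxia-inducible repressor Bhlhe40 (2.12) and the anion channel subunit Lrrc8c (2.06).

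Among the largest falls, Plk2, a polo-like kinase (ENSMUSG00000021701, chromosome 13, 110395046 to 110400844), had 284, 200.04 and 470.3 in EBd3 IAA and 2269, 2382 and 1970.1 in EBd2 IAA (-2.88 ± 0.17, adjusted p = 1.1e-11). Gadd45g, a growth arrest gene, had 85.2, 127 and 91.3 in EBd3 IAA and 779, 746 and 629.7 in EBd2 IAA (-2.83 ± 0.12). Cdkn1a, which codes for the cell cycle inhibitor p21 (ENSMUSG00000023067, chromosome 17, 29090976 to 29100727), had 312, 215 and 525 in EBd3 IAA and 2333, 2302 and 2193 in EBd2 IAA (-2.79 ± 0.17). Here too the separation of the groups was a condition of the choice. Inka2 (-2.87), the ring finger gene Rnf225 (-2.83), the ATP-gated channel P2rx7 (-2.82), the epidermal factor Zfp750 (-2.76), the neuronal factor Neurod1 (-2.72), the PDZ protein Pdzd2 (-2.63) and the efflux pump Abcb1b (-2.50) completed the 10 largest falls. Among the EBd3 IAA libraries, EBd3 IAA 2 was lowest for Plk2 and Cdkn1a and EBd3 IAA 3 highest.

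**Figure D1:**
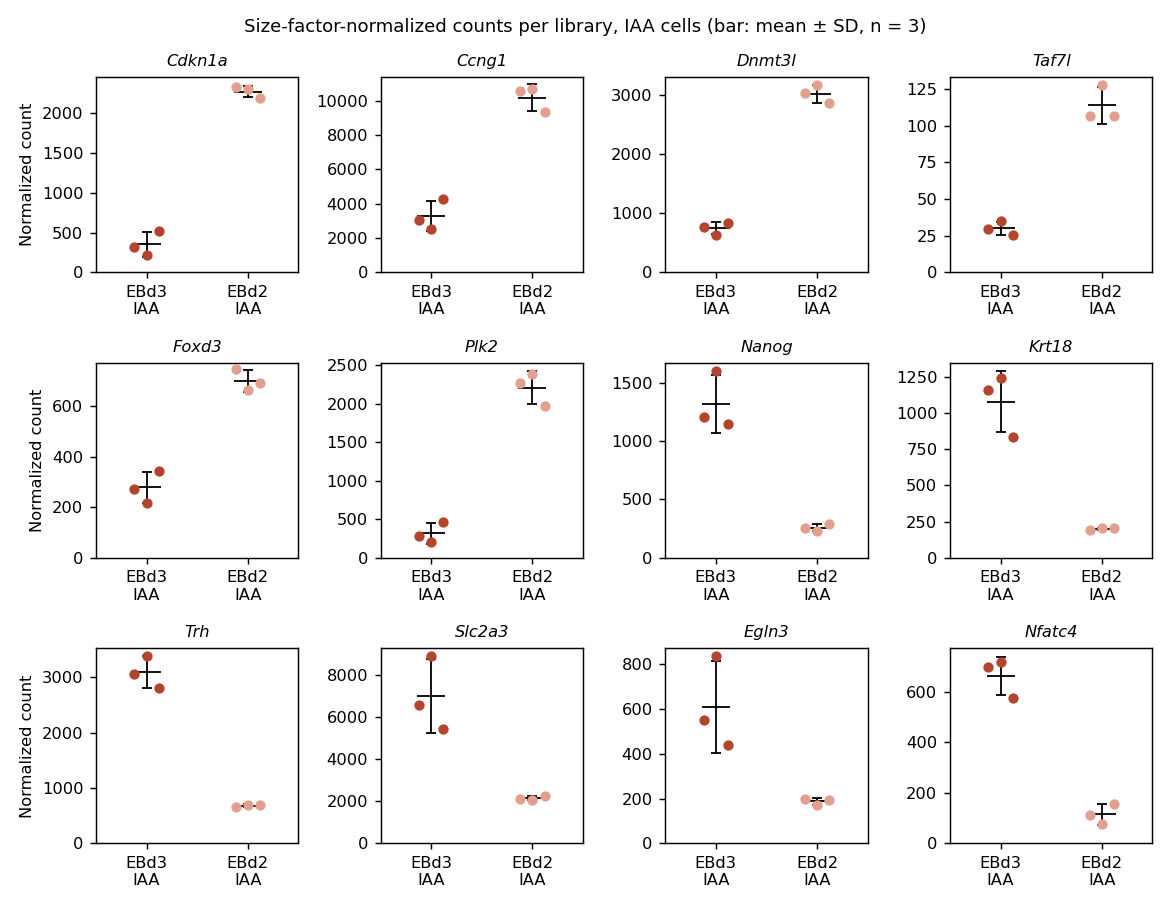
Size-factor-normalized counts (y axes) of 12 genes in the 3 EBd3 IAA libraries (left) and the 3 EBd2 IAA libraries (right), with points for libraries and bars for mean ± SD. For every gene shown the libraries of the 2 groups are separate, with Cdkn1a at 215 to 525 in EBd3 IAA and 2193 to 2333 in EBd2 IAA.

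Targets of p53 moved down almost throughout. Of 18 listed p53 targets, 17 fell and 1 rose, with a median of -1.16, beside 23.3% and 20.4% of all tested genes. In all 18 the groups did not overlap, beside 52.7% of all tested genes. Phlda3, an inhibitor of Akt, had 206, 214 and 307 in EBd3 IAA and 1136, 1177 and 1083 in EBd2 IAA (-2.24 ± 0.10). Bbc3, which codes for the death-promoting protein PUMA, had 279, 239 and 293 in EBd3 IAA and 974, 957 and 947 in EBd2 IAA (-1.83 ± 0.07). For both genes every day 3 library was below every day 2 library. Mdm2, the ubiquitin ligase that p53 induces and that degrades p53, had 893, 811 and 1033 in EBd3 IAA and 2446, 2483 and 2195 in EBd2 IAA (-1.38 ± 0.07). Ccng1 (cyclin G1) averaged 3273 ± 892 in EBd3 IAA and 10198 ± 761 in EBd2 IAA (-1.67 ± 0.11), and Trp53inp1, a stress-induced partner of p53, averaged 2373 ± 459 in EBd3 IAA and 7402 ± 432 in EBd2 IAA (-1.66 ± 0.08). The smallest fall was that of Pmaip1, the death gene NOXA (-0.16). Sesn1, a stress-induced regulator of growth signalling, was the member that rose, to 218 ± 22.9 in EBd3 IAA, against 174 ± 9.66 in EBd2 IAA (0.32 ± 0.10), a call lost without EBd2 IAA 1 or EBd3 IAA 1. The list's summed level was 15746 to 20804 in EBd3 IAA and 39573 to 42969 in EBd2 IAA. In Dox cells 16 members fell and 1 rose over the same day. The step differed between IAA and Dox cells for 4, all with the smaller fall in IAA cells. Over all 21915 tested genes 2.95% had a higher step in IAA cells.

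Targets of p53 are known for p53 response elements, and 3 promoters of genes that fell are shown with matches to the half-site, a part of such an element. For each gene the start of lowest coordinate that had a match was taken. Each runs from 250 bases before to 50 bases after the RefSeq start on GRCm38.p6, with matches to the p53 half-site consensus, searched on both strands, in capitals.
Cdkn1a (chr17:29090729-29091028, plus strand): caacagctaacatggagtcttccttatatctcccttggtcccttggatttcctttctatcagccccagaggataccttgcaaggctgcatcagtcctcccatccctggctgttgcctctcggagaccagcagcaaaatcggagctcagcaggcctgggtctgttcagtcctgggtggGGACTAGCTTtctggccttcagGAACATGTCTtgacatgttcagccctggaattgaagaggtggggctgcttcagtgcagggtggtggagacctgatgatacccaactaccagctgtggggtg
Ccng1 (chr11:40755237-40755536, minus strand): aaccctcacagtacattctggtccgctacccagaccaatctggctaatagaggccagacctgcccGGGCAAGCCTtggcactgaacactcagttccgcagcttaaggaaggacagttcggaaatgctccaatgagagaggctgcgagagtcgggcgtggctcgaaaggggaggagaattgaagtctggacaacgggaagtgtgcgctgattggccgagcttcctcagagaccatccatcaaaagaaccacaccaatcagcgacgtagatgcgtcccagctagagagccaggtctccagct
Mdm2 (chr10:117710709-117711008, minus strand): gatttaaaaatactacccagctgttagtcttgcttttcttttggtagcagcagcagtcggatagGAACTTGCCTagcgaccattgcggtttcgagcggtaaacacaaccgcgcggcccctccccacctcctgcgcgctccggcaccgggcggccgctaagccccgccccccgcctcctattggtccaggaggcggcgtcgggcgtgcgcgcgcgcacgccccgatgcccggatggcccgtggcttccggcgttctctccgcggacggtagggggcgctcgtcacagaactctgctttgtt
Of the 13 p53 targets with a promoter in the table, 9 (69.2%) held the half-site, against 8.57% of the 12756 tested genes with one and 9.55% of all 27025. A gene counted if any of its annotated starts had a match, so genes with more starts had more chances. A match describes the letters in this window and is neither a whole response element nor a measured binding site.

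Genes induced by low oxygen, among them those of glucose uptake and glycolysis, rose over the same day. Of 19 listed hypoxia and glycolysis genes, 15 rose and 1 fell, with a median of 0.85, and the groups did not overlap for 14, beside 20.4% of all tested genes that rose and 52.7% that did not overlap. Slc2a3, a glucose transporter (ENSMUSG00000003153, chromosome 6, 122727809 to 122801640), had 6596, 8929.8 and 5456 in EBd3 IAA and 2108, 2078 and 2254 in EBd2 IAA (1.67 ± 0.10, adjusted p = 1.29e-11). Slc2a1, the other main glucose transporter, had 7605, 8665 and 6387 in EBd3 IAA and 3648, 3692 and 4095 in EBd2 IAA (0.98 ± 0.07). Egln3, an oxygen-sensing prolyl hydroxylase, had 551, 836 and 439 in EBd3 IAA and 196, 169.6 and 195 in EBd2 IAA (1.65 ± 0.14). All day 3 libraries were above all day 2 libraries for these genes, and EBd3 IAA 2 was the highest each time. Among the glycolytic enzymes, Aldoa (0.77), Aldoc (1.67), Pfkp (1.01) and Pgk1 (0.42) rose. Ldha, Pfkl and Hk2 did not pass the test (-0.06, -0.03 and 0.00), and Eno1, an enzyme of lower glycolysis, fell slightly (-0.09), a call lost under most alternatives. The growth factor Vegfa (1.03), the mitophagy receptor Bnip3 (0.90) and the carbonic anhydrase Car9 (1.06, with 25.9 ± 4.49 in EBd3 IAA and 12.9 ± 6.46 in EBd2 IAA) rose too. Without EBd3 IAA 2 the list had 13 rises and 1 fall, with a median of 0.67. In Dox cells 17 members rose and 0 fell.

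HIF factors are known to mediate the response of cells to low oxygen and to bind the core ACGTG. Their part in the rises here was not tested. Shown with that core in capitals, on either strand, are 3 promoters of genes that rose. The window, the build and the choice of start were those used above.
Egln3 (chr12:54203825-54204124, minus strand): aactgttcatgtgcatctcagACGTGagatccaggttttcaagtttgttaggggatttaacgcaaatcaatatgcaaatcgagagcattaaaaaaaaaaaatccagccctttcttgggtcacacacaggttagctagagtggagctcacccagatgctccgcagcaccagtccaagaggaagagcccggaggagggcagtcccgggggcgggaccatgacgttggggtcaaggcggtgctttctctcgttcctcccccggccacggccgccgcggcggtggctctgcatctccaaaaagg
Pgk1 (chrX:106186850-106187149, plus strand): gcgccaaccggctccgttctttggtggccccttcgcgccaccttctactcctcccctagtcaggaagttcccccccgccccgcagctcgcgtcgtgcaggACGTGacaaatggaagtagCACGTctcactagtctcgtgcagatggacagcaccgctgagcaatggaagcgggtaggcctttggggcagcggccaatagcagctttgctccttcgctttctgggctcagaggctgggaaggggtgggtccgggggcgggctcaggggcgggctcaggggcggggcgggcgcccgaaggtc
Bnip3 (chr7:138909457-138909756, minus strand): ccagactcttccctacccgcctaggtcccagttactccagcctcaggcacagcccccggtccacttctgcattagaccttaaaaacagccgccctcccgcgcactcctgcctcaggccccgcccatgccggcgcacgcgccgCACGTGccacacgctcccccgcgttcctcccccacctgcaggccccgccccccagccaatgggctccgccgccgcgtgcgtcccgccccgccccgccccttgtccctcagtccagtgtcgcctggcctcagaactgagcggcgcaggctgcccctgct
In Bnip3 the matches on the opposite strands overlap and spell CACGTG, which is also an E-box. The core was present in 13 of the 18 listed genes with a promoter in the table (72.2%), against 27.9% of the 12756 tested genes with one and 21.8% of all 27025. Here too a match at any annotated start counted.

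**Figure D2:**
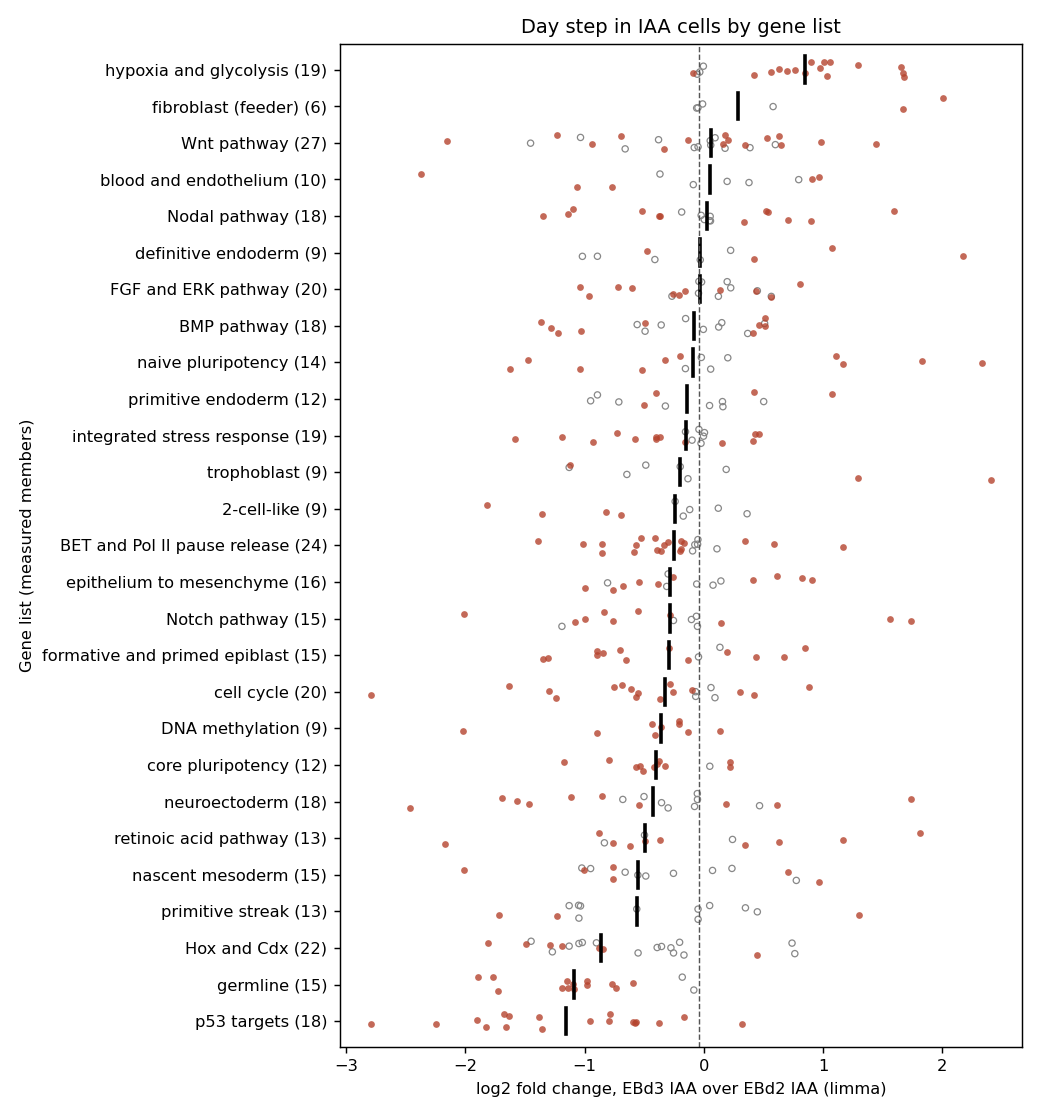
Log2 fold change of EBd3 IAA over EBd2 IAA (x axis) for each measured member of 27 gene lists (rows, number of members in brackets). Filled points passed an adjusted p of 0.05, open points did not, vertical bars are list medians, and the dashed line is the median of all tested genes at -0.04, with p53 targets at -1.16 and hypoxia genes at 0.85 as the outermost lists.

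Naive pluripotency factors moved in both directions, while core pluripotency genes mostly fell. Nanog (ENSMUSG00000012396, chromosome 6, 122707489 to 122714633) had 1203, 1603 and 1149.7 in EBd3 IAA and 253, 234 and 289.7 in EBd2 IAA (2.33 ± 0.10). Fbxo15, an Oct4 target that marks stem cells, had 203, 210.0 and 234 in EBd3 IAA and 108, 89.3 and 101.4 in EBd2 IAA (1.11 ± 0.11). Both rose without overlap of the groups, and so did Dppa3 (1.17, to 45.5 ± 6.21 in EBd3 IAA, against 19.7 ± 3.19 in EBd2 IAA). The nuclear receptors Nr0b1 (-1.63) and Nr5a2 (-1.47) and the factor Klf4 (-1.04) fell, and Esrrb, another naive factor, had 169, 165 and 109 in EBd3 IAA and 149, 134 and 136 in EBd2 IAA, which overlapped (0.06 ± 0.14, adjusted p = 0.767). In total 4 of the 14 naive genes rose and 6 fell, with 3 falls by DESeq2, with thinned reads or without EBd2 IAA 1. Of the 12 core pluripotency genes 2 rose and 9 fell, with a median of -0.40. Both lists stand beside 20.4% of all tested genes that rose and 23.3% that fell. Sox2 had 1388, 1352 and 1508 in EBd3 IAA and 2499, 2427 and 2427 in EBd2 IAA (-0.79 ± 0.05), and Pou5f1, which codes for Oct4, averaged 7032 ± 351 in EBd3 IAA and 8809 ± 344 in EBd2 IAA (-0.33 ± 0.04). Dppa2 (-1.17), Trim28 (-0.57) and Utf1 (-0.53) fell as well.

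Markers of the formative and primed epiblast mostly fell in IAA cells, 9 of 15, while 4 rose (median -0.29). Over all tested genes 23.3% fell and 20.4% rose. Tcf15, a transcription factor of cells that leave naive pluripotency (ENSMUSG00000068079, chromosome 2, 152143561 to 152149097), had 237, 246 and 283 in EBd3 IAA and 629.6, 617 and 649.6 in EBd2 IAA (-1.31 ± 0.08, adjusted p = 1.01e-11). Foxd3 averaged 278 ± 62.9 in EBd3 IAA and 699 ± 42.3 in EBd2 IAA (-1.35 ± 0.11), and the neural-primed factors Sox3 (-0.89) and Pou3f1 (-0.84) fell too. Otx2, a key factor of the formative state, went the other way and rose to 1358 ± 161 in EBd3 IAA, against 752 ± 17.3 in EBd2 IAA (0.84 ± 0.07). Fgf5 overlapped between the days, with 619, 615 and 715 in EBd3 IAA and 676, 650.4 and 679 in EBd2 IAA (-0.04 ± 0.07).

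Of the 9 genes that write, keep or remove DNA methylation, 8 fell and 1 rose, beside 23.3% and 20.4% of all tested genes. With reads thinned to equal depth 5 fell. Dnmt3l, the cofactor of the de novo enzymes (ENSMUSG00000000730, chromosome 10, 78041947 to 78063622), had 773, 637 and 837 in EBd3 IAA and 3033, 3164 and 2856 in EBd2 IAA (-2.02 ± 0.07, adjusted p = 1.05e-14). Dnmt3a, a de novo methyltransferase, had 6708, 6468 and 6806 in EBd3 IAA and 12148, 12669 and 12445 in EBd2 IAA (-0.90 ± 0.04). Dnmt3b, the other de novo enzyme, fell less, with 26504, 24637 and 25693 in EBd3 IAA and 28666, 27022 and 28666 in EBd2 IAA (-0.13 ± 0.03). The groups did not overlap for any of them, yet the size of the fall differed widely within the family. The maintenance genes Dnmt1 (-0.41) and Uhrf1 (-0.43) fell, and the repair glycosylase gene Tdg was the member that rose (0.14), a call lost without any one of EBd2 IAA 2, EBd2 IAA 3, EBd3 IAA 1 or EBd3 IAA 3.

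Germline genes, many of which are known to be silenced by DNA methylation, fell. Of 15 listed, 13 fell and 0 rose, with a median of -1.09, beside 23.3% and 20.4% of all tested genes. Taf7l, a germ-cell transcription factor subunit, had 29.7, 34.8 and 25.5 in EBd3 IAA and 107, 128 and 107 in EBd2 IAA (-1.90 ± 0.17). Piwil2, a piRNA-binding protein, had 59.4, 70.8 and 75.4 in EBd3 IAA and 261, 247 and 201 in EBd2 IAA (-1.77 ± 0.13). Both were separate between the days, as were Sycp1 of the meiotic chromosome axis (-1.10) and Dmrt1 (-0.98). Sycp3 and Prdm1 did not pass (-0.08 and -0.18). Genes of the 2-cell-like state, which stem cells enter in small numbers, gave 4 falls and 0 rises among 9. Tcstv1 (-1.82), Usp17le (-1.36), Tcstv3 (-0.82) and Usp17la (-0.69) were the falls, and the Tcstv3 and Usp17la calls were lost under several alternatives. These genes have near-identical copies among which reads may be split, so single members are uncertain.

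Of the 18 measured members of the Nodal pathway, 6 rose and 6 fell, beside 20.4% and 23.3% of all tested genes. Nothing is read about the pathway from these counts. The ligand gene Nodal had 308, 291 and 297 in EBd3 IAA and 753, 760.5 and 768 in EBd2 IAA (-1.35 ± 0.06), and the related ligand Gdf3 had 234, 246 and 288 in EBd3 IAA and 568, 592 and 532 in EBd2 IAA (-1.14 ± 0.08). Both fell without overlap, as did Smad7, a feedback inhibitor of the receptors (-1.10 ± 0.09). Furin, a protease that activates the Nodal precursor, rose to 473 ± 59.4 in EBd3 IAA, against 157 ± 25.3 in EBd2 IAA (1.59 ± 0.11). The receptor genes Acvr1b (0.52) and Acvr2b (0.34) and the transducer Smad3 (0.54) rose. Among the targets, the antagonist Lefty2 rose (0.71), while Lefty1 had 1106, 909.5 and 1083 in EBd3 IAA and 931, 898 and 1159 in EBd2 IAA, with overlap (0.06 ± 0.08).

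In the BMP pathway, the direct targets Id1, Id2 and Id3, inhibitors of basic helix-loop-helix factors, fell together (-1.28, -1.36 and -1.22). Id2 had 174, 186 and 219.7 in EBd3 IAA and 540.4, 488 and 463 in EBd2 IAA. The receptor genes Bmpr1a (0.41) and Bmpr2 (0.51) and the transducers Smad1 (0.46) and Smad5 (0.51) rose, and the pathway list held 4 rises and 5 falls among 18. In the FGF pathway 4 genes rose and 7 fell of 20. Over all tested genes 20.4% rose and 23.3% fell, and nothing is read about the BMP and FGF pathways from their counts. The ligand gene Fgf4 had 2261, 1964 and 2406 in EBd3 IAA and 4287, 4646 and 4636 in EBd2 IAA (-1.04 ± 0.06), the ERK-induced factor Etv4 fell (-0.96), and the feedback inhibitors Spry1 (0.57) and Spry2 (0.44) rose. The immediate early gene Egr1 rose (0.81), and Fos was not past the threshold (0.57).

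The Wnt list had 9 rises and 6 falls among 27, beside 20.4% and 23.3% of all tested genes. Nothing is read about the pathway from these counts. Porcn, which acylates Wnt proteins for secretion, had 235, 227 and 221 in EBd3 IAA and 122, 115 and 107 in EBd2 IAA (0.98 ± 0.10). Wls, which carries Wnt proteins to the surface, rose (0.53), as did Rnf43, an inhibitor that removes Wnt receptors (1.45). The feedback target Axin2 had 185, 170.2 and 153 in EBd3 IAA and 116, 103 and 107 in EBd2 IAA (0.63 ± 0.11), with no overlap. The nuclear effectors did not move alike, since Tcf7 rose (0.65) and Lef1 (-0.94) and Tcf7l1 (-0.69) fell. The ligand Wnt3 fell to 20.5 ± 7.41 in EBd3 IAA, against 47.6 ± 5.41 in EBd2 IAA (-1.23 ± 0.24).

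Notch ligand genes fell, namely Dll1 (-2.01), Dll3 (-0.76), Jag1 (-0.99) and Jag2 (-0.55). Dll1 had 121, 200.04 and 149.7 in EBd3 IAA and 675, 626 and 574 in EBd2 IAA. The target Hey1 rose at a low level, with 56.8, 46.0 and 34.0 in EBd3 IAA and 13.2, 16.2 and 13.9 in EBd2 IAA (1.57 ± 0.24), and the list gave 3 rises and 7 falls of 15, with 1 rise without EBd2 IAA 2. Of 13 genes of retinoic acid signalling 4 rose and 6 fell, with falls of the receptors Rarg (-0.76) and Rara (-0.49) and a rise of their partner Rxra (0.63). The Notch and retinoic acid counts stand beside 20.4% of all tested genes that rose and 23.3% that fell. Cyp26a1, which degrades retinoic acid and is induced by it, rose to 13.8 ± 2.32 in EBd3 IAA, against 3.26 ± 1.00 in EBd2 IAA (1.81 ± 0.39).

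Germ layer markers are read against the 20.4% of all tested genes that rose and the 23.3% that fell. Among 13 genes of the primitive streak, 1 rose and 2 fell. T, the streak gene brachyury, was the rise (1.30 ± 0.41), with 7.74, 8.70 and 14.9 in EBd3 IAA and 3.53, 3.61 and 3.31 in EBd2 IAA, a call lost by DESeq2, in the fit of 24 libraries and without EBd3 IAA 3. The falls were Wnt3 and Gsc, and DESeq2 gave 0 rises and 1 fall on this list. Gsc was listed at 0 in all EBd3 IAA libraries and its call was lost with thinned reads and without EBd2 IAA 1 or 2, and Eomes averaged 55.6 ± 3.51 in EBd3 IAA and 53.7 ± 3.45 in EBd2 IAA (0.05 ± 0.16). Nascent mesoderm genes had 2 rises and 4 falls of 15, among them a fall of Mesp2 (-1.001), and 1 rise by DESeq2 and without EBd2 IAA 2, EBd2 IAA 3 or EBd3 IAA 2. Hhex was the 1 fall among definitive endoderm genes, lost by DESeq2, without EBd3 IAA 3 and without any one of the EBd2 IAA libraries. The definitive endoderm genes had 3 rises and 1 fall of 9. Their largest change was that of Trh, with 3068, 3388 and 2811 in EBd3 IAA and 654, 696 and 692 in EBd2 IAA (2.18 ± 0.06), while the defining factors Sox17, Foxa2 and Gata6 averaged 3.12 ± 1.64, 2.36 ± 2.49 and 2.00 ± 1.94 in EBd3 IAA, against 6.88 ± 1.32, 2.95 ± 2.22 and 3.85 ± 2.02 in EBd2 IAA, and did not pass.

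Neuroectoderm genes gave 3 rises and 7 falls of 18. Sox21 (-2.47), Gbx2 (-1.69) and En2 (-1.46) fell, and the neuronal tubulin Tubb3 rose to 1115 ± 91.6 in EBd3 IAA, against 729 ± 29.0 in EBd2 IAA (0.61 ± 0.06). Pax6 stayed within its spread, with 254, 236 and 264 in EBd3 IAA and 249.9, 278 and 256 in EBd2 IAA (-0.05 ± 0.08, adjusted p = 0.644). Hox and Cdx genes had 1 rise and 6 falls of 22 (3 falls by DESeq2 or without any one of the EBd2 IAA libraries), with a median of -0.86 at low levels. Hoxd13 had 19.4, 19.9 and 21.2 in EBd3 IAA and 76.8, 71.3 and 71.6 in EBd2 IAA (-1.81 ± 0.19).

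Markers of other lineages gave no uniform change, read against 20.4% of all tested genes that rose and 23.3% that fell. Of 9 trophoblast genes 2 rose and 1 fell (2 fell with thinned reads or without EBd3 IAA 1), the rises being the keratins Krt8 (1.29) and Krt18, while Cdx2 averaged 1.55 ± 0.495 in EBd3 IAA and 4.73 ± 1.81 in EBd2 IAA. Primitive endoderm genes had 2 rises and 2 falls of 12 (4 falls without EBd3 IAA 2), with Col4a2 among the rises (1.08) and Ttr listed at 0 in all 6 libraries. Blood and endothelium genes had 2 rises and 3 falls of 10, with 0 rises by DESeq2 and without EBd2 IAA 3 or EBd3 IAA 1, the largest fall being that of the angiopoietin receptor Tek, which had 9.03, 16.2 and 23.4 in EBd3 IAA and 84.8, 96.5 and 68.9 in EBd2 IAA (-2.38 ± 0.26). Fibroblast markers, read as a check for feeder cells, had 2 rises and 0 falls of 6, with a summed level of 250.5 to 358 in EBd3 IAA and 111 to 128 in EBd2 IAA. Thy1 and Col6a1 rose (1.67 and 2.00), whereas Col1a1 averaged 12.8 ± 5.04 in EBd3 IAA and 12.7 ± 3.53 in EBd2 IAA, and Lum and Postn were listed at 0 in all 6 libraries. The part of such cells in the other results was not tested.

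The list of epithelial and mesenchymal genes had 4 rises and 6 falls of 16, with a median of -0.28. It and the lists below stand beside 20.4% of all tested genes that rose and 23.3% that fell. The tight junction genes Cldn6 (0.62), Cldn7 (0.90) and Ocln (0.82) rose, and the mesenchymal filament gene Vim fell (-0.997). Cdh1, the epithelial cadherin, did not pass (0.08). Cell cycle genes had 3 rises and 13 falls of 20, with 5 rises in thinned reads. Myc had 175, 159 and 213 in EBd3 IAA and 621, 573 and 508 in EBd2 IAA (-1.64 ± 0.10), and Mycn had 894, 760.4 and 972 in EBd3 IAA and 2125, 2007 and 2046 in EBd2 IAA (-1.24 ± 0.07). Both fell clear of the spread, together with the replication licensing gene Mcm5 (-0.55) and cyclin D1 (Ccnd1, -0.69), while the inhibitor Cdkn1b rose (0.88). The integrated stress response, the ATF4 programme, had 4 rises and 9 falls of 19, with 2 rises without EBd2 IAA 2. Its factors Atf5 (-1.58), Atf4 (-0.58) and Ddit3 (-0.73) and the growth inhibitor Sesn2 (-1.19) fell, and its amino acid synthesis genes Asns (0.43) and Psat1 (0.42) rose.

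The step was measured in the same way in Dox cells, to ask how far it depends on IAA. Of 22234 genes tested there, 4773 rose (21.5%) and 5566 fell (25.0%), 46.5% in all. Over the 20821 genes tested in both, the log2 steps of IAA and Dox cells had a Pearson r of 0.70 and a Spearman rho of 0.69 across genes, which are not independent replicates. Genes that rose in both numbered 3325, which is 76.0% of those that rose in IAA cells and 69.9% of those that rose in Dox cells. Genes that fell in both numbered 3651, or 73.4% of the falls in IAA cells and 67.6% of those in Dox cells. The step itself differed between IAA and Dox cells for 1543 of 21915 genes (7.04%), higher in IAA cells for 647 (2.95%) and lower for 896 (4.09%). Calls were opposite for 43 genes that rose in IAA and fell in Dox cells and for 80 that fell in IAA and rose in Dox cells, and the difference passed for each of them.

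Most of the differing genes were nearer between IAA and Dox cells on day 3 than on day 2. Of the 1543, 1234 (80.0%) were nearer between IAA and Dox cells on day 3 than on day 2, against 61.4% of all tested genes. The median distance between IAA and Dox for these 1543 genes was 0.17 on day 3 and 0.46 on day 2 (absolute log2), beside 0.19 and 0.27 for all tested genes. These shares use the libraries that chose the genes and are given as a description.

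**Figure D3:**
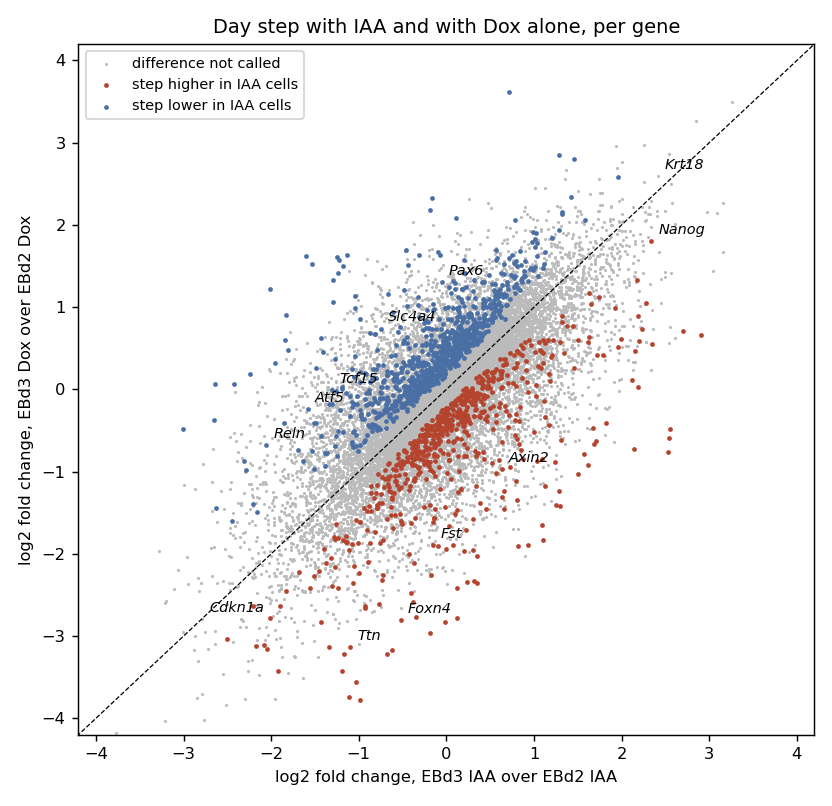
Log2 fold change of EBd3 IAA over EBd2 IAA (x axis) against that of EBd3 Dox over EBd2 Dox (y axis) for 20821 genes. Red points have a step that is higher in IAA cells, blue points one that is lower, grey points did not pass the test of the difference, and the dashed line marks equal steps.

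Among genes with a mean of at least 100 in 1 or more of the 4 groups, the 8 with the largest higher steps in IAA cells all fell in Dox cells. Ranking by this difference favours a fall in Dox cells, and a high EBd2 Dox level alone can pass the filter. The falls are thus given as a description. Ttn, which codes for titin (ENSMUSG00000051747, chromosome 2, 76703980 to 76982547), had 56.8, 34.8 and 79.6 in EBd3 IAA and 116, 115 and 121 in EBd2 IAA, and 95.0, 136 and 128 in EBd3 Dox and 1161, 1013 and 969.6 in EBd2 Dox. It fell in both, by far more in Dox cells, and the difference of the steps was 2.03 ± 0.24 (adjusted p = 2.19e-06). Foxn4, a forkhead factor of neural progenitors, had 36.1, 48.5 and 28.7 in EBd3 IAA and 58.3, 48.7 and 53.7 in EBd2 IAA, and 36.8, 30.9 and 32.9 in EBd3 Dox and 205, 259 and 261 in EBd2 Dox (2.29 ± 0.24). Fst, which codes for the activin antagonist follistatin, had 82.6, 55.9 and 115 in EBd3 IAA and 85.6, 83.0 and 103 in EBd2 IAA, and 57.0, 118 and 118 in EBd3 Dox and 327, 363 and 349.5 in EBd2 Dox (1.74 ± 0.29). The high group is EBd2 Dox in all 3 of these genes. Axin2 differed in sign as well as size, with 158, 161 and 181 in EBd3 Dox and 357, 356 and 276 in EBd2 Dox, so that it fell in Dox cells (-0.97) and rose in IAA cells (0.63), and the difference was 1.61 ± 0.15. Vwa3b (2.05), the tryptophan-degrading enzyme Ido2 (1.90), the NAD-synthesising enzyme Nmnat2 (1.90) and the non-coding RNA Eprn (1.79) were the other members of the 8 largest. The calls for Fst and Eprn were lost under alternatives, Fst in the fit of all 24 libraries.

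Genes with a lower step in IAA cells include several that were already high in IAA cells on day 2. Tcf15 had 171, 178 and 187 in EBd3 Dox and 162, 170.1 and 212 in EBd2 Dox, where its step was -0.01 ± 0.10, and the fall in IAA cells brought it towards that level (difference -1.29 ± 0.13). Pax6 had 248, 241 and 260.0 in EBd3 Dox and 93.1, 103 and 106 in EBd2 Dox, so that it rose in Dox cells (1.30) to the level that IAA cells held on both days (difference -1.36 ± 0.13, adjusted p = 4.96e-08). Atf5 had 1246, 914 and 1305 in EBd3 IAA and 3479, 3301 and 3469.5 in EBd2 IAA, and 619, 715 and 658 in EBd3 Dox and 776, 799 and 780.1 in EBd2 Dox (difference -1.34 ± 0.11). Its level was greater in each IAA library than in any Dox library on both days. The 8 largest also held the bicarbonate transporter Slc4a4 (-1.48), the matrix proteins Reln (-1.38), Sned1 (-1.31) and Fras1 (-1.22), and the repressor Klf12 (-1.20).

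Among the lists, the integrated stress response had the most members with a lower step in IAA cells, 11 of 19, and 0 with a higher one. Over all 21915 tested genes 4.09% had a lower and 2.95% a higher step, and each count below stands beside these shares. Asns had 3639.9, 3372 and 3361 in EBd3 IAA and 2595, 2502 and 2618 in EBd2 IAA, and 3421, 3219 and 3184 in EBd3 Dox and 1494, 1514 and 1632 in EBd2 Dox (difference -0.66 ± 0.07). Day 3 levels were close in IAA and Dox cells, whereas day 2 levels were higher in IAA cells. Formative epiblast genes had 9 lower steps and 1 higher of 15, with Dnmt3a (-0.60), Dnmt3b (-0.46) and Fgf5 (-0.84) among the lower ones. Hypoxia genes had 7 lower and 1 higher of 19, so that Slc2a1 (-0.82) and P4ha1 (-1.01) rose less in IAA cells. Neuroectoderm genes had 5 lower and 0 higher of 19, with Nes (-0.69) and Tubb3 (-0.61). Naive pluripotency genes went the other way, with 6 higher and 0 lower of 14, a count of 3 by DESeq2 and without EBd2 Dox 1, EBd2 IAA 2 or EBd3 Dox 3. Esrrb had 146, 132 and 144 in EBd3 Dox and 306, 319 and 276 in EBd2 Dox and fell there (-1.09), and the difference was 1.14 ± 0.17. Of the Nodal targets, Lefty1 had 3276, 2724 and 2819.6 in EBd3 Dox and 1688, 1605 and 1582 in EBd2 Dox. It rose in Dox cells (0.85) and was not past the threshold in IAA cells, with a difference of -0.79 ± 0.11. The FGF list had 4 lower and 1 higher of 20, with 8 lower without EBd2 Dox 3 and 2 lower by DESeq2 and without EBd2 Dox 1, EBd2 Dox 2, EBd2 IAA 3, EBd3 Dox 1 or EBd3 Dox 2. Brd2 and the 7SK genes Mepce and Larp7 also differed (-0.27, -0.34 and 0.46), and Hexim1 did not pass (-0.04, adjusted p = 0.864).

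**Figure D4:**
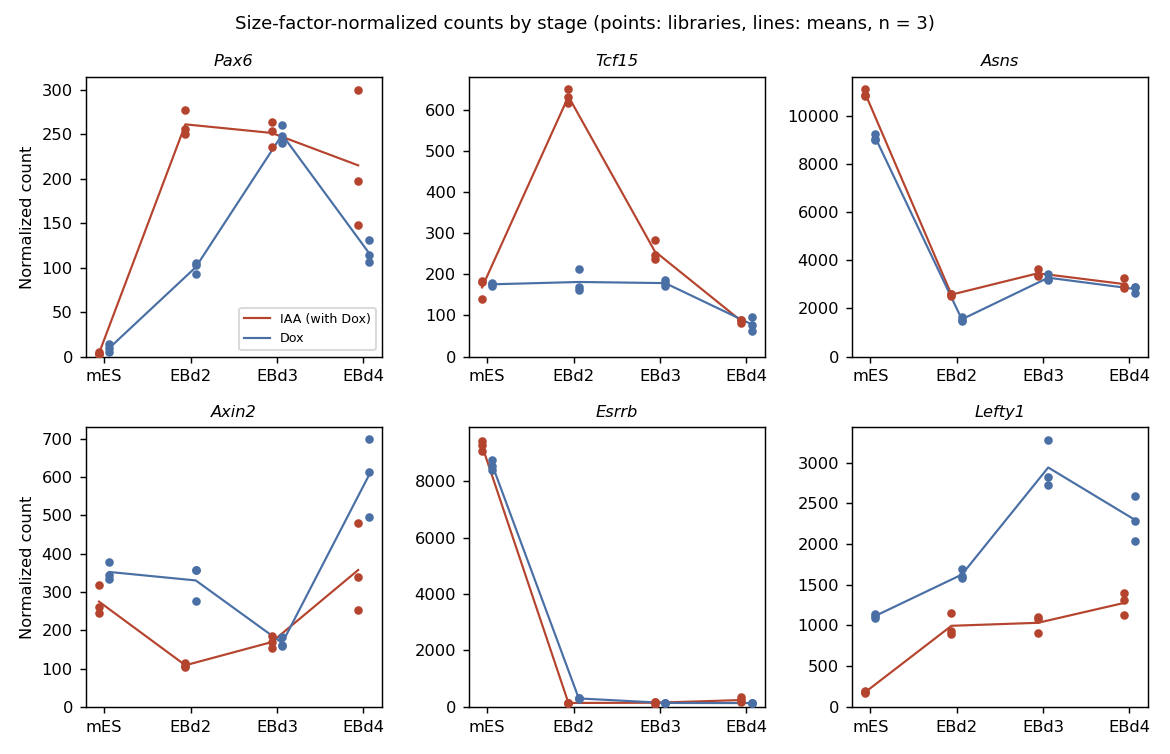
Size-factor-normalized counts (y axes) of 6 genes in mES cells and on EB days 2, 3 and 4 (x axes), with points for libraries and lines through group means (n = 3), red for IAA cells (which also had Dox) and blue for Dox cells. On EBd3 the IAA and Dox points lie close for Pax6, Asns and Axin2, and on EBd2 they are apart.

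Long genes stood out among those with a lower step in IAA cells. The classes of genomic span, from the first to the last annotated base, were chosen after earlier results of these data were known, and the values are given as a description. Of 446 protein-coding genes longer than 300 kb, 26 (5.83%) rose and 191 (42.8%) fell in IAA cells, with a median of -0.46, whereas in Dox cells 119 rose and 109 fell, with a median of 0.04. The difference was lower in IAA cells for 114 of them (25.6%) and higher for 3 (0.673%). Among the 1687 genes of 100 to 300 kb, 191 (11.3%) had a lower and 66 (3.91%) a higher step. Among the 4370 genes of 30 to 100 kb these shares were 5.10% and 4.71%. The median level of the longest genes, relative to the mean of the 4 groups, was -0.59 to -0.32 (log2) over the EBd3 IAA libraries and -0.02 to 0.02 over the EBd2 IAA libraries. It was 0.24 to 0.28 over the EBd3 Dox and 0.22 to 0.27 over the EBd2 Dox libraries, so the EBd3 IAA libraries were all below the rest. The median step in IAA cells ranged from -0.50 to -0.32 over the alternatives, and it was -0.40 without EBd3 IAA 2.

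Among these long genes, Pdzd2 (ENSMUSG00000022197, chromosome 15, 12359711 to 12739924) had 29.7, 37.3 and 49.9 in EBd3 IAA and 276, 247 and 205 in EBd2 IAA, and 47.5, 28.7 and 41.4 in EBd3 Dox and 96.4, 96.4 and 127 in EBd2 Dox (-1.19 ± 0.26). Reln, which codes for the secreted guidance protein reelin (ENSMUSG00000042453, chromosome 5, 21884454 to 22344702), had 21.9, 23.6 and 37.2 in EBd3 IAA and 120.1, 121 and 104 in EBd2 IAA, and 34.4, 50.03 and 54.1 in EBd3 Dox and 72.9, 69.0 and 78.2 in EBd2 Dox. Fras1, a basement membrane protein (ENSMUSG00000034687, chromosome 5, 96373955 to 96784728), had 77.4, 70.8 and 83.9 in EBd3 IAA and 199, 175 and 162 in EBd2 IAA, and 199, 150.1 and 178 in EBd3 Dox and 169, 162 and 184 in EBd2 Dox. Fras1 fell in IAA cells and its Dox step was 0.03 ± 0.11, while Pdzd2 and Reln fell in both and further in IAA cells. Slc4a4 (ENSMUSG00000060961, chromosome 5, 88886818 to 89239653) had 78.7, 65.9 and 80.7 in EBd3 IAA and 146, 118 and 116 in EBd2 IAA, and 148, 163 and 132 in EBd3 Dox and 85.5, 85.1 and 92.6 in EBd2 Dox. It fell in IAA cells and rose in Dox cells, without overlap of the days in either. The receptor phosphatase Ptprk averaged 603 ± 59.0 in EBd3 IAA and 1197 ± 36.4 in EBd2 IAA, and 923 ± 25.9 in EBd3 Dox and 868 ± 25.7 in EBd2 Dox (difference -1.08 ± 0.09). The teneurin Tenm4 (difference -1.19) and the calcium channel subunit Cacna2d1 (difference -1.05) fell in IAA cells. Their Dox steps were 0.21 and 0.25, and both were named after their values were seen. Among the 4989 genes of 10 to 30 kb, 3.41% had a lower and 3.99% a higher step. Depth and mitochondrial share also moved between the days in Dox cells, with 8353587 to 9371177 reads and 1.14% to 1.19% in EBd3 Dox, and 11005217 to 13992700 reads and 0.831% to 0.892% in EBd2 Dox. With reads thinned to the smallest library, where equal totals also replaced the size factors, the median step of genes over 300 kb in IAA cells was -0.37. The median difference from Dox cells was then -0.44, against -0.49 without thinning. The part of the mitochondrial share was not tested.

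**Figure D5:**
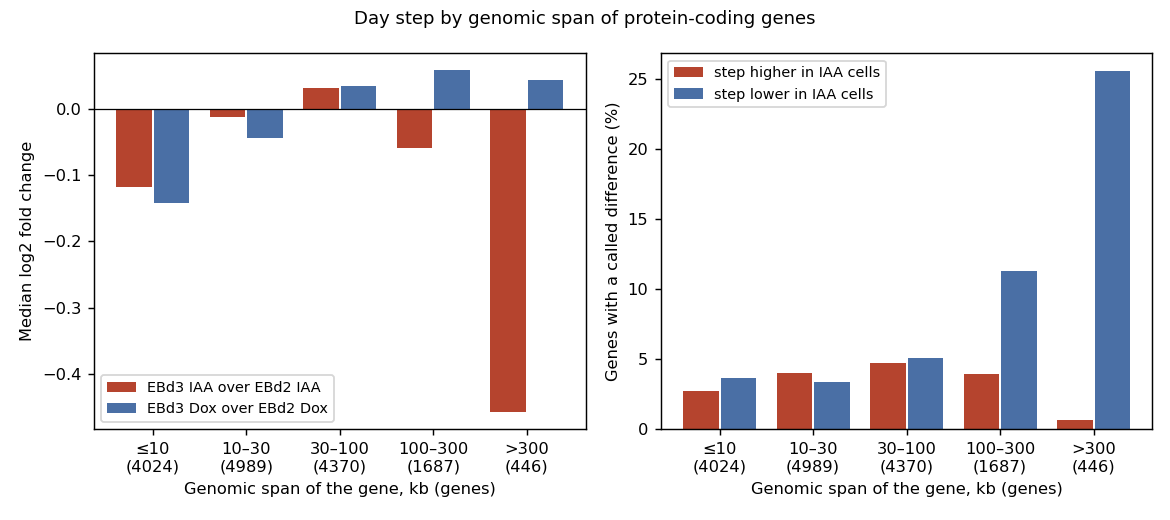
Left, median log2 fold change of day 3 over day 2 in IAA cells (red) and Dox cells (blue) for protein-coding genes by genomic span in kb (x axis, number of genes in brackets). Right, percent of genes in each class whose step was higher (red) or lower (blue) in IAA cells than in Dox cells, with 25.6% lower among genes over 300 kb.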

How the data were processed

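Total RNA was extracted with TRIzol and sequenced, per the labels' protocols. The submitters' processing notes name STAR 2.5.3a, featureCounts 1.5.2, DESeq2 and mm10, with no version of DESeq2. The signal values the authors deposited are counts divided by a size factor per library, made jointly for all 24 libraries, and 100% of them gave whole reads within 1e-06. A test for counts (edgeR) had been planned if the tables held counts, and limma for normalized values, so limma was used.

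From these values log2(value + 1) was fitted with limma 3.58.1 (trend) in R 4.3.3 where a gene averaged 1 or more over the libraries of the fit, with Benjamini-Hochberg adjustment at 0.05. The day step was fitted over 6 libraries within IAA and within Dox cells, and their difference over 12 libraries as an interaction. The members and lists were chosen with earlier results of these data known. Named genes were the 10 largest changes each way (8 for the difference) with adjusted p below 0.05, at least 100 as the mean of the higher group and, for the step, non-overlapping libraries, skipping predicted genes, pseudogenes and genes without a symbol. The BET genes, up to 4 members per list (2 for the difference) and further list members and long genes, chosen after their values were seen, were added. Some genes carry uncertain reads, as stated beside them, and some named genes are not reported here. Promoters are RefSeq sequences on GRCm38.p6. The alternatives were constants of 0.5 and 5, no filter or a mean of 10, TMM scaling and edgeR 4.0.16, DESeq2 1.42.0 on recovered reads, thinned reads, all 24 libraries, a replicate block and each library left out. The fits were tested on simulated data.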

Additional observations from a re-analysis of the deposited data

Results flagged for a closer look

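The day step differed between IAA and Dox cells by a test of the difference itself (limma interaction, adjusted p below 0.05, 12 libraries) for 51 named genes. Values are the log2 step of IAA cells minus that of Dox cells. The first 8 of each direction were chosen as the largest among well-measured genes, and the others as list members with the smallest adjusted p.

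Lower steps in IAA cells were those of Slc4a4 (-1.48), Reln (-1.38), Pax6 (-1.36), Atf5 (-1.34), Sned1 (-1.31), Tcf15 (-1.29), Fras1 (-1.22) and Klf12 (-1.20) among the largest. Lists of stress, hypoxia, epiblast, neural and Nodal genes and others added P4ha1 (-1.01), Cdh3 (-0.86), Fgf5 (-0.84), Slc2a1 (-0.82), Hes1 (-0.80), Lefty1 (-0.79), Myc (-0.76), Nes (-0.69), Asns (-0.66), Krt8 (-0.65), Sfrp1 (-0.64), Col4a1 (-0.61), Dnmt3a (-0.60), Id2 (-0.59), Ell2 (-0.54), Dnmt3b (-0.46), Sox2 (-0.46), Crabp2 (-0.41) and Epcam (-0.32). Pax6, Fgf5 and Lefty1 rose in Dox cells and did not pass in IAA cells, while Tcf15 fell in IAA cells and did not pass in Dox cells.

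Higher steps in IAA cells were those of Foxn4 (2.29), Vwa3b (2.05), Ttn (2.03), Ido2 (1.90), Nmnat2 (1.90), Eprn (1.79), Fst (1.74) and Axin2 (1.61) among the largest. List members added Nkx1-2 (2.70), Sp5 (2.53), Gata1 (1.92), Esrrb (1.14), Trh (0.85), Fbxo15 (0.79), Dll1 (0.77), Zmat3 (0.74), Taf7l (0.74), Zscan4c (0.72), Zcwpw1 (0.66), Dusp4 (0.64), Mycn (0.57), Larp7 (0.46), Ckap2 (0.46) and Sall4 (0.27). Nkx1-2, Sp5 and Gata1 had the widest of these differences at low levels, with 3.80 ± 2.54, 1.12 ± 1.07 and 6.70 ± 0.646 in EBd3 IAA, 2.52 ± 1.27, 3.05 ± 1.31 and 3.48 ± 0.866 in EBd2 IAA, 6.15 ± 2.47, 1.42 ± 1.23 and 4.02 ± 1.13 in EBd3 Dox, and 34.3 ± 6.50, 25.1 ± 8.65 and 9.78 ± 1.16 in EBd2 Dox (mean ± SD, n = 3). Among the alternatives that gave an adjusted p, the call for Sp5 was lost under 12 and that for Gata1 under 10, thinned reads among them for both. DESeq2 called none of Nkx1-2, Sp5 and Gata1 in the difference. Calls for Dll1, Zscan4c, Eprn, Crabp2, Taf7l and Sall4 were lost under several alternatives too, for Dll1 and Zscan4c no less often than for Sp5. Mycn fell in both, and less in IAA cells, whereas Myc fell more in IAA cells, a difference that was not past the threshold by DESeq2 or in the fit of all 24 libraries.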

How the results depend on the processing

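The count of genes changed between the days in IAA cells (9385) was 7447 by DESeq2 and at most 9534 over the alternatives, and 7860 to 9523 with a library left out. Every count of changed genes over all tested genes stayed within 1.5 times of its value under every alternative, except that the genes with a higher step in IAA than in Dox cells (647) were 403 without EBd2 Dox 2, and 403 to 856 with any library left out, the highest without EBd2 Dox 3. The cause was not tested. With the replicate block the counts were 9073 for the step in IAA cells, 10198 for the step in Dox cells and 1455 for the difference. The replicate numbers did not pair the libraries: deviations of same-numbered libraries of the 2 days correlated at 0.02, -0.02 and -0.06 in IAA cells and at 0.01, 0.00 and 0.00 in Dox cells.

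Under every alternative that gave the gene an adjusted p, direction and call were the same for 111 of 118 named genes of the step. This held for 41 of 51 of the difference, and none of the named genes reversed. Apart from the BET genes, these were chosen for large changes or small adjusted p, which favours stable calls. The genes added after their values were seen are not among them, and the lost calls of Sesn1, Tdg and Eno1 are given where those genes are described. Within the 118 and the 51, calls were lost for Gsc, Hhex, Lmo2, T, Tal1, Tcstv3 and Usp17la (step) and for Crabp2, Dll1, Eprn, Fst, Gata1, Myc, Sall4, Sp5, Taf7l and Zscan4c (difference). Alternatives that gave a gene no adjusted p, as DESeq2 or a higher filter can, were not counted, so 111 and 41 are upper counts. Nkx1-2 was not called by DESeq2 in the difference and is among the 41. Leaving 1 library out leaves a group with 2. The lower depth of the day 3 libraries limits genes of low counts most.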
